A study of Mus musculus with 24 samples.

Results

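The phagocyte NADPH oxidase was followed through 5 of its genes, Cybb, Cyba, Ncf1, Ncf4 and Rac2, in mouse bone marrow-derived macrophages. The genes were chosen by symbol, and each probe set annotated with 1 of these symbols and no other was taken. This gave 10 of the 45037 probe sets of the array without its control probe sets: 3 for Cybb, 3 for Ncf1, 2 for Rac2 and 1 each for Cyba and Ncf4. All 10 were among the 43349 probe sets tested. Further subunits of the enzyme were not analysed here.

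Total RNA was measured on 24 mouse expression arrays, 1 for each culture. The marrow came from 3 Pparg fl/- LysCre mice (mice 4 to 6) and 3 Pparg+/- LysCre mice (mice 1 to 3), all on the C57Bl/6 background. Both genotypes carried 1 null allele of Pparg and LysCre, in which Cre recombinase is expressed from the lysozyme M locus of myeloid cells. The second Pparg allele was floxed in the fl/- mice and wild type in the +/- mice. Each mouse gave 4 cultures, with or without 20 ng/ml IL-4 and with 1 µM rosiglitazone (RSG, a synthetic agonist of the nuclear receptor PPARγ) or the vehicle DMSO:ethanol, all for 10 days in 20 ng/ml of the macrophage growth factor M-CSF. The 8 groups therefore held 3 arrays each, and cultures of different groups of 1 genotype came from the same 3 animals.

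The value of a probe set is an expression ratio, in which 1 is the median of that probe set over the arrays. The ratios of 2 genes can therefore not be set against each other, and only differences between groups are read below. Called probe sets are those that passed an adjusted p of 0.05 in limma and changed 1.5-fold or more. Errors of ratios are SD over 3 mice and errors of log2 changes are SE.

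The phagocyte oxidase moves electrons from NADPH across a membrane to oxygen and so makes superoxide, the first of the reactive oxygen species used against engulfed microbes. Its catalytic core, flavocytochrome b558, is a membrane heterodimer of gp91phox, encoded by Cybb and also called NOX2, and p22phox, encoded by Cyba. In a resting cell the core is inactive, and on stimulation the cytosolic proteins p47phox (Ncf1) and p40phox (Ncf4) and the GTPase Rac2 move to the membrane and switch it on. Loss of Cybb, Cyba or Ncf1 in humans causes chronic granulomatous disease. IL-4 signals through STAT6 and drives the alternative activation of macrophages.

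The sequences around the transcription start sites of the membrane subunits and of Ncf1 are given because these genes did not move alike with IL-4. The RefSeq table of promoters held 3 of the 5 genes, in the build GRCm38.p6, and each window runs from 250 bases before to 50 bases after a start site. The Cybb window lies inside the annotated span of the gene (chrX:9435252-9487766), so its start site is not the outermost one. Other start sites were not analysed here. Capitals mark matches to motifs searched on both strands.
Cybb, chrX:9469275-9469574, minus strand: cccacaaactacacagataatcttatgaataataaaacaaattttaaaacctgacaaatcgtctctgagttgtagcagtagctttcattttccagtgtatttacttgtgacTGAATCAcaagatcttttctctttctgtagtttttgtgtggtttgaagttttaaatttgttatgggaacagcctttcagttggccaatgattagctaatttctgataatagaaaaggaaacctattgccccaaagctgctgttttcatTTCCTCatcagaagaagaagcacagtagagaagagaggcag
Cyba, chr8:122432891-122433190, minus strand: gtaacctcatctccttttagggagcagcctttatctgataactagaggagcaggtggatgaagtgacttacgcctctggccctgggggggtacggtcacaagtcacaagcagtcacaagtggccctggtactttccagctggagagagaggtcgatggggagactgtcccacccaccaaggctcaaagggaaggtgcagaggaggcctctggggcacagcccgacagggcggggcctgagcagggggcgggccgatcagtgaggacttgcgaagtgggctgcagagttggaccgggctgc
Ncf1, chr5:134229576-134229875, minus strand: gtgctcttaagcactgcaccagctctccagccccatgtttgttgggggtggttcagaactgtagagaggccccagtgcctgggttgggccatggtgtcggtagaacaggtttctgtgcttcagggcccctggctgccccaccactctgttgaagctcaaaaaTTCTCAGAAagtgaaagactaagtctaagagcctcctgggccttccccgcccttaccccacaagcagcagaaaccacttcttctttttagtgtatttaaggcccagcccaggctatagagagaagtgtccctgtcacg
Motifs were TTC and GAA with 3 or 4 bases between them (forms of the site bound by STAT proteins), the ETS motifs GAGGAA and GAGGAAGT, an AGGTCA repeat with 1 base between (nuclear receptors) and TGANTCA (AP-1), of which GAGGAA is part of GAGGAAGT. The spacing of 4 bases, which STAT6 prefers, stood in 6.95% of all 32851 promoter windows of this length and in none of the 3. The Cybb window held TGAATCA, a form of TGANTCA (7.81% of all windows), with its first base at -139 relative to the start site, and GAGGAA on the opposite strand (28.3% of all windows) from base 10 to 15. In the Ncf1 window TTCTCAGAA had the spacing of 3 bases (8.3% of all windows). GAGGAAGT (3.2% of all windows) and the AGGTCA repeat (0.0396%) were in none. The Cyba window held none of the 6 motifs, and it had 60.7% G and C, against 35.3% in the Cybb window and a median of 52.7% over all windows. These matches are descriptions of the letters only.

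The cultures answered to IL-4 as their labels said. Retnla and Arg1, marker genes of alternative activation in the mouse, had mean ratios of 2.56 to 2.98 and of 2.47 to 2.94 in the 4 IL-4-treated groups, against the lowest value of the table, 0.01, on every array without IL-4. The chitinase-like gene Chil3 had group means of 2.25 to 2.71 with IL-4 and of 0.136 to 0.177 without it. Pparg itself (1420715_a_at) had mean ratios of 2.38 ± 0.44 and 2.64 ± 0.69 in Pparg fl/- cells with IL-4 and RSG or vehicle, and of 0.966 ± 0.111 and 1.73 ± 0.28 in Pparg+/- cells. The place of this probe set relative to the floxed exons was not analysed here, so it does not check the deletion. Lyz2, the lysozyme gene at which LysCre sits, had ratios of 16.6 to 21.6 on all 8 arrays of mice 2 and 4 and of 0.296 to 1.15 on those of the other 4 mice, so that 1 mouse of each genotype stood apart. Mouse 2 enters the Pparg+/- values below, and mouse 4 the Pparg fl/- values. Of 10 macrophage markers measured, 3 or 4 fell and 0 or 1 rose in each IL-4 comparison. Of all genes, 6.78% to 8.24% fell and 7.71% to 9.75% rose in these comparisons. Cd14, Cx3cr1 and Fcgr1 fell in all 4, Mertk fell with vehicle in both genotypes, and Itgam rose in all but Pparg+/- cells with RSG, while Csf1r, Adgre1 and Cd68 were called in none. Ratios do not show whether a transcript was detected.

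The main question for the oxidase was what IL-4 did to its subunits. Ncf4 and Cyba rose, Cybb fell, while Ncf1 and 1 of the 2 Rac2 probe sets were called in no IL-4 comparison. Over the mean of the 4 comparisons (each genotype with RSG and with vehicle), 5 of the 10 probe sets were called, 2 up and 3 down, against 18.5% of all probe sets tested (10.2% up and 8.3% down). Of all called probe sets 55.1% were higher with IL-4, or 44.4% when the array medians were centred. The log2 changes were 0.91 ± 0.07 for Ncf4 (1.88-fold higher, adjusted p = 4.0e-09 in limma), 0.59 ± 0.06 for Cyba (1.5-fold higher, adjusted p = 1.4e-07) and -0.82 ± 0.10 (1.77-fold lower), -0.67 ± 0.10 (1.59-fold lower) and -0.88 ± 0.16 (1.84-fold lower) for the Cybb probe sets 1436779_at, 1436778_at and 1422978_at, with adjusted p of 2.3e-06, 1.4e-05 and 0.00017. The rise of Cyba lay at the 1.5-fold limit. It was short of that limit, and so not called, at 0.50 in log2 with centred array medians, at 0.58, 0.56 and 0.57 without mouse 1, 4 or 6, and at 0.57 without the array of mouse 4 with IL-4 and vehicle. Quantile normalization also took it below the limit. The median log2 change of the 10 probe sets was -0.03, against 0.12 for all probe sets.

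**Figure D1:**
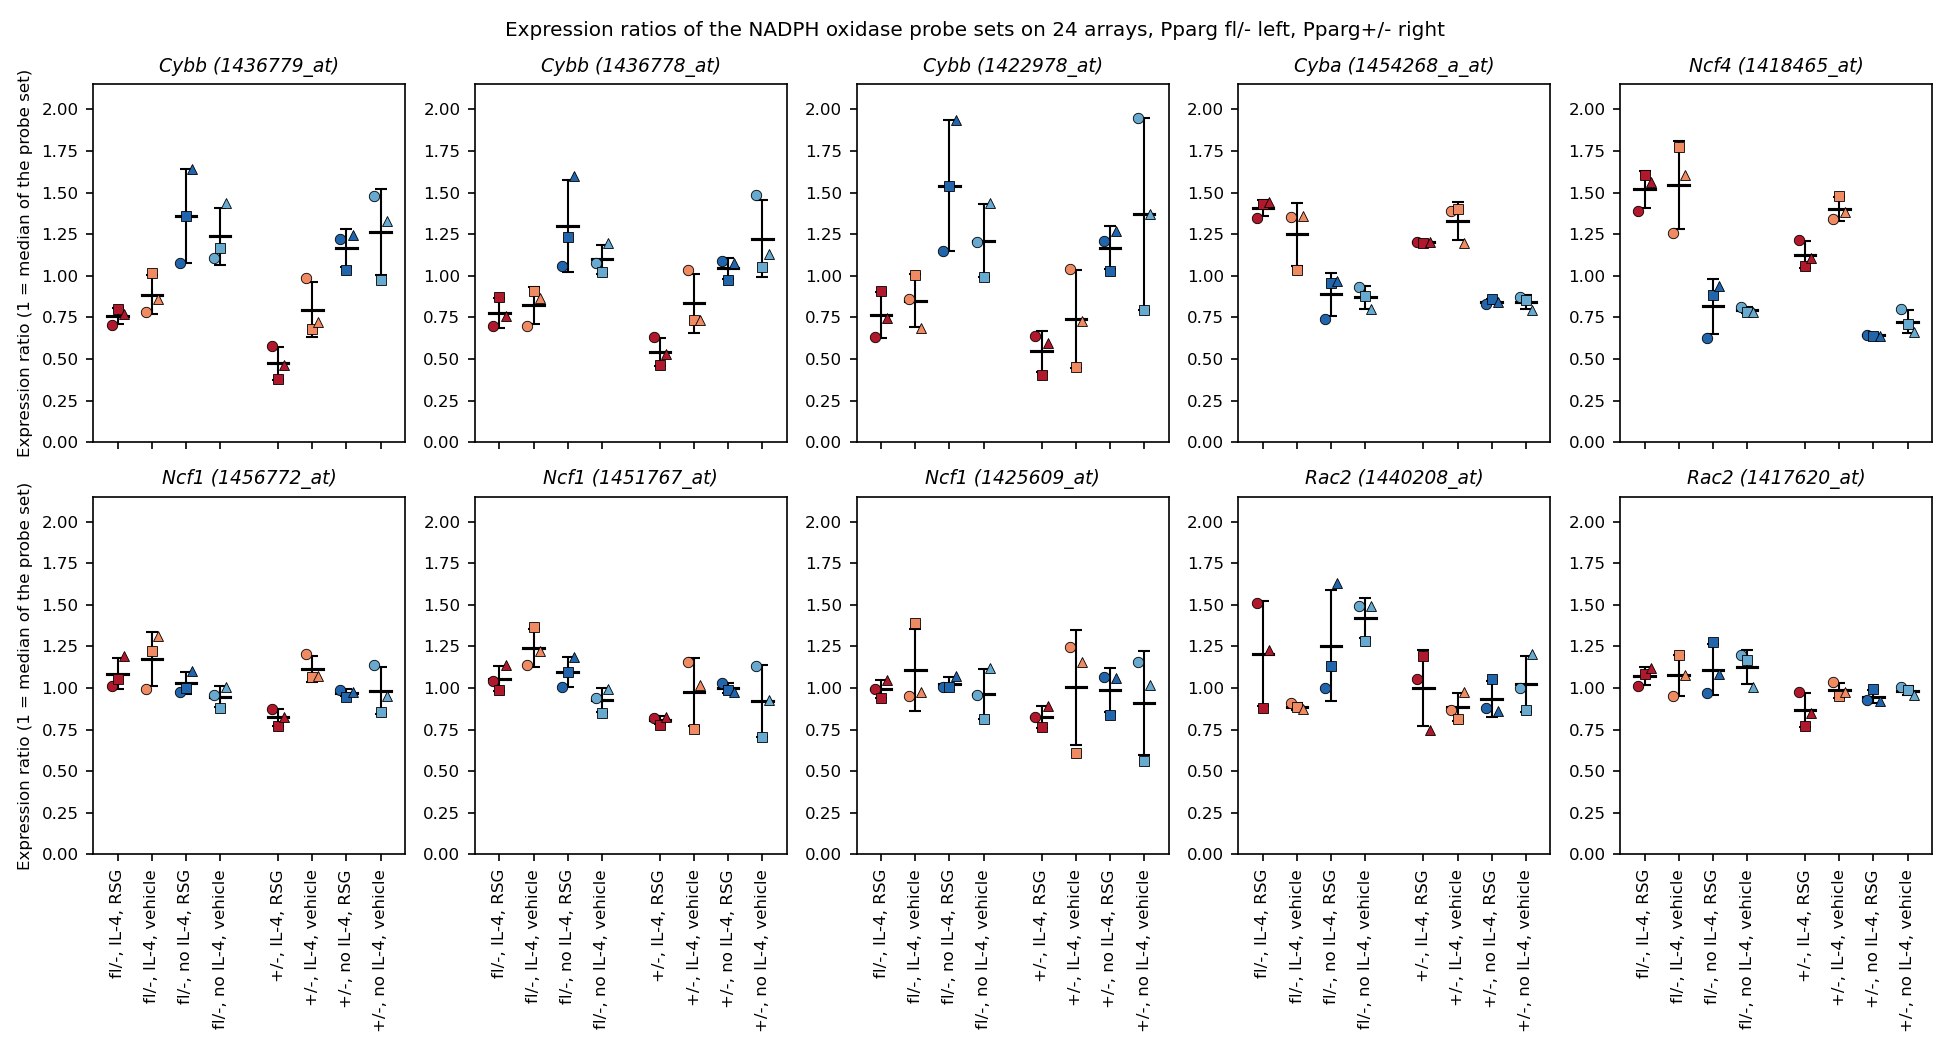
Expression ratio (1 = median of the probe set) of each of the 10 probe sets on the 24 arrays, by group, with Pparg fl/- cultures on the left of each panel and Pparg+/- cultures on the right. Points are arrays (circle, square and triangle are mice 4, 5 and 6 on the left and mice 1, 2 and 3 on the right), and bars are the mean and SD of 3 mice. Ncf4 and Cyba are higher in the IL-4-treated cultures and Cybb is lower, while Ncf1 and Rac2 show no common shift.

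Cybb, the catalytic subunit, is covered by 3 probe sets whose log2 values correlated at 0.92 to 0.98 over the 24 arrays. In Pparg fl/- cells with RSG, 1436779_at had ratios of 0.704, 0.802 and 0.770 with IL-4 in mice 4, 5 and 6, against 1.08, 1.36 and 1.64 without it. In their vehicle cultures the ratios were 0.786, 1.01 and 0.858 with IL-4 and 1.11, 1.17 and 1.43 without it. In Pparg+/- cells with RSG they were 0.578, 0.378 and 0.467 with IL-4 in mice 1, 2 and 3, against 1.22, 1.03 and 1.25 without it. Every mouse was lower with IL-4 in these 3 comparisons, and the arrays did not overlap. In the vehicle cultures of Pparg+/- cells the ratios were 0.985, 0.681 and 0.723 with IL-4 and 1.48, 0.976 and 1.33 without it, and here mouse 1 with IL-4 lay just above mouse 2 without it, although each mouse was lower with IL-4 than without.

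The log2 changes of 1436779_at in the same order were -0.82 ± 0.21 (adjusted p = 0.0079), -0.48 ± 0.21 (adjusted p = 0.12), -1.32 ± 0.21 (2.49-fold lower, adjusted p = 0.00016) and -0.66 ± 0.21 (adjusted p = 0.030), so that 3 of the 4 were called. Probe set 1436778_at gave -0.72, -0.42, -0.96 and -0.56 in log2, with adjusted p of 0.012, 0.14, 0.0017 and 0.054. For 1422978_at, which varied more between mice, the values were -1.0, -0.51, -1.12 and -0.88, with adjusted p of 0.035, 0.31, 0.021 and 0.065. Both were thus called with RSG in each genotype and not with vehicle. The calls in Pparg fl/- cells with RSG did not survive the loss of mouse 6, when the 3 probe sets had log2 changes of -0.69, -0.55 and -0.81 and adjusted p of 0.11, 0.18 and 0.24. There 1422978_at was also lost without mouse 4 or 5 (adjusted p of 0.11 each) and 1436779_at without mouse 5 (adjusted p = 0.064). In Pparg+/- cells with RSG 1422978_at was lost without mouse 3 (adjusted p = 0.15), and the other 2 Cybb probe sets kept their calls without any 1 mouse. The call of 1436779_at in vehicle-treated Pparg+/- cells was lost without mouse 1 (-0.70, adjusted p = 0.073), without mouse 3 (-0.55, adjusted p = 0.27) and without the untreated array of mouse 1 alone (-0.54, adjusted p = 0.14). With the mouse as a fixed block 1422978_at was called there (adjusted p = 0.014), and with centred array medians both 1422978_at and 1436778_at were (adjusted p of 0.034 and 0.013).

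Cyba, the partner that stabilises gp91phox in the membrane, is covered by 1454268_a_at. Its ratios in Pparg fl/- cells with RSG were 1.35, 1.43 and 1.44 with IL-4 and 0.741, 0.956 and 0.968 without it. With vehicle they were 1.35, 1.03 and 1.36 against 0.933, 0.880 and 0.798. In Pparg+/- cells the ratios with RSG were 1.20 with IL-4 in each of the 3 mice, against 0.828, 0.862 and 0.845 without it. With vehicle they were 1.39, 1.40 and 1.20 with IL-4 and 0.874, 0.853 and 0.794 without it. All 12 IL-4-treated arrays thus lay above all 12 arrays without IL-4. The log2 changes were 0.67, 0.51, 0.51 and 0.66 (SE 0.12 each), with adjusted p of 0.00043, 0.0041, 0.0055 and 0.00052. The first and the last were called, while the others passed the test but were short of 1.5-fold. Without mouse 5 the change with vehicle in Pparg fl/- cells was 0.65 and was called, and without mouse 4 the change with RSG was 0.58 and was not. The call in Pparg+/- cells was lost with centred array medians, at 0.56, and with quantile normalization.

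Ncf4 encodes p40phox, which binds phosphatidylinositol 3-phosphate on phagosomes. It was the only gene of the 5 called in all 4 IL-4 comparisons. In Pparg fl/- cells with RSG its ratios were 1.39, 1.61 and 1.56 with IL-4 and 0.628, 0.884 and 0.938 without it. With vehicle they were 1.25, 1.77 and 1.60 against 0.813, 0.782 and 0.782. The Pparg+/- cultures with RSG had 1.22, 1.06 and 1.10 with IL-4, against 0.647, 0.641 and 0.641 without it. With vehicle the ratios were 1.34, 1.48 and 1.39 with IL-4 and 0.800, 0.710 and 0.665 without it. Again no IL-4-treated array came down to the level of any array without IL-4. The log2 changes were 0.91, 0.95, 0.81 and 0.96 (SE 0.14 each), or 1.89-, 1.93-, 1.75- and 1.94-fold, with adjusted p of 0.00012, 7.0e-05, 0.00048 and 7.4e-05. Each of these calls was kept without any 1 mouse, while those in Pparg fl/- cells were lost by the methods' t-test (unpaired, on the 2 groups alone), with adjusted p of 0.075 with RSG and 0.058 with vehicle.

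Ncf1 encodes p47phox, the organiser that is phosphorylated on activation and carries the cytosolic proteins to the core. Its probe sets correlated at 0.59 to 0.85 with each other. None was called with IL-4 in any comparison, and over the mean of 4 their log2 changes were 0.08 (1456772_at, 95% interval -0.04 to 0.21), 0.04 (1451767_at, -0.13 to 0.20) and 0.01 (1425609_at, -0.26 to 0.28). Each change was smaller than the shift of all probe sets (0.12) and was below 0 when the array medians were centred. With RSG the 3 probe sets had log2 changes of -0.05 to 0.08 in Pparg fl/- and of -0.31 to -0.24 in Pparg+/- cells, and with vehicle of 0.19 to 0.42 and of 0.09 to 0.19. The differences between the IL-4 responses with RSG and with vehicle were -0.47 to -0.23 in Pparg fl/- and -0.43 to -0.39 in Pparg+/- cells, and none was called (adjusted p of 1.0 each, with 0% and 0.00231% of all probe sets called). Mouse 2 had the lowest value of its group on 1425609_at in all 4 Pparg+/- groups, for example 0.611 against 1.24 and 1.16 in mice 1 and 3 with IL-4 and vehicle.

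Rac2 encodes a GTPase of blood cells that completes the active enzyme. Its 2 probe sets correlated at only 0.31. As 1417620_at varied little, this does not show whether both follow the same transcript. On 1417620_at all ratios lay between 0.773 and 1.27, and the log2 changes with IL-4 were -0.05, -0.07, -0.14 and 0.00, with 95% intervals that stayed between -0.38 and 0.25. Probe set 1440208_at was called in 1 comparison, vehicle-treated Pparg fl/- cells, with ratios of 0.911, 0.884 and 0.872 with IL-4 against 1.5, 1.28 and 1.49 without it, a log2 change of -0.68 ± 0.21 (adjusted p = 0.026). That call was lost without any 1 of mice 4, 5 and 6 (adjusted p of 0.073, 0.063 and 0.13). In the other 3 comparisons its log2 changes were -0.06, 0.08 and -0.20, so a change of Rac2 with IL-4 rests on 1 probe set in 1 comparison.

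**Figure D2:**
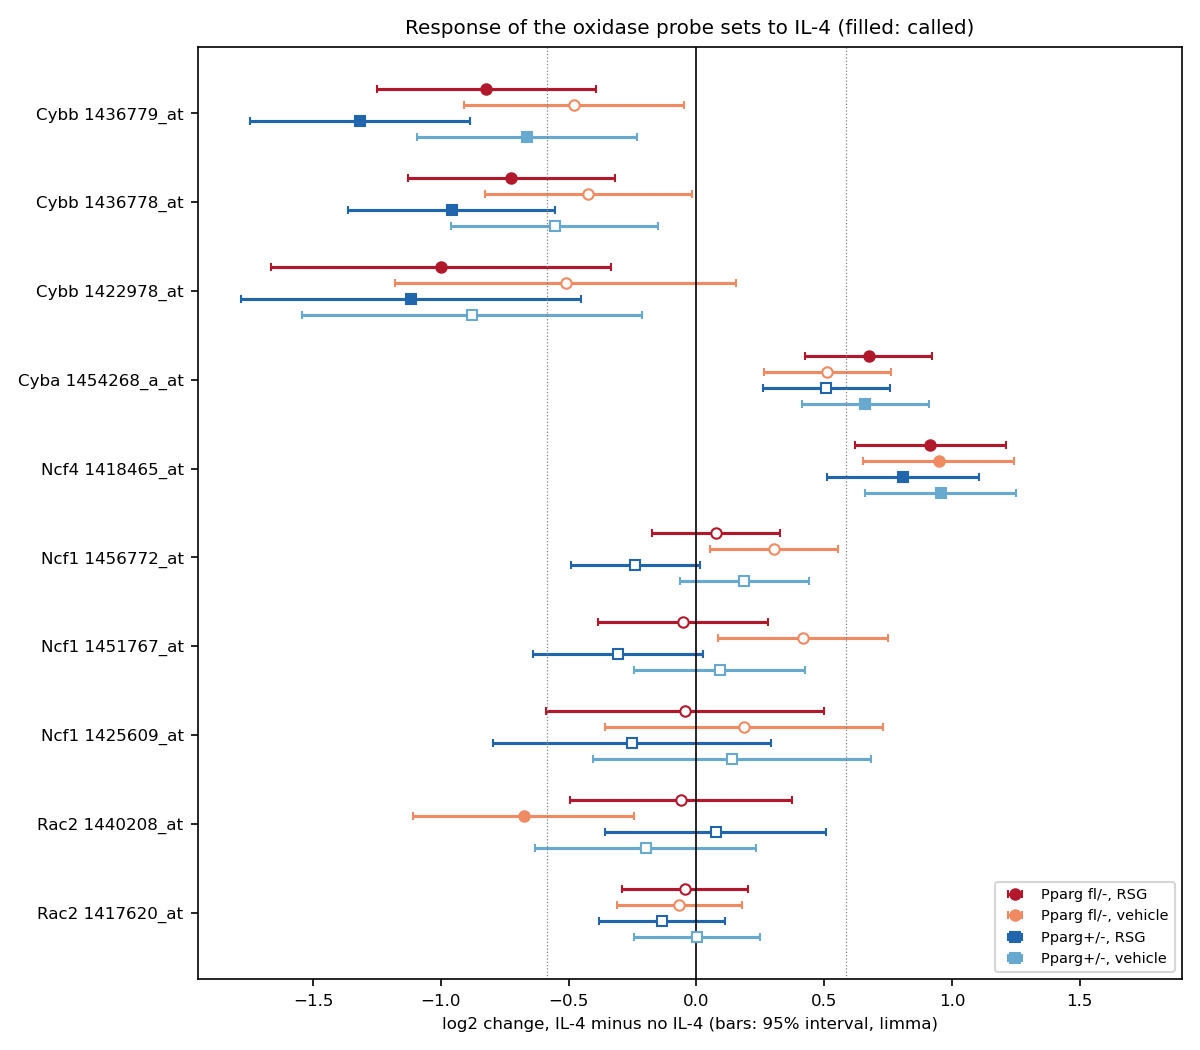
Log2 change with IL-4 (IL-4 minus no IL-4) of each of the 10 probe sets in Pparg fl/- and Pparg+/- cells with RSG or vehicle, with 95% intervals from limma. Filled points were called, and the dotted lines mark a 1.5-fold change. Ncf4 lies between 0.81 and 0.96 in all 4 comparisons, and every Cybb point is below 0.

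By comparison, 5 of the 10 probe sets were called in Pparg fl/- cells with RSG (2 up, 3 down), against 13.3% of all probe sets (7.3% up, 6.03% down). With vehicle 2 were called (1 up, 1 down), against 14.8% of all (8.21% up, 6.6% down). In Pparg+/- cells the counts were 4 with RSG (1 up, 3 down), against 11.6% of all (6.57% up, 5.07% down), and 3 with vehicle (2 up, 1 down), against 13.4% of all (7.91% up, 5.47% down). The 2 groups had no overlapping arrays for 5, 6, 7 and 3 of the 10 probe sets in the same order, against 33.2%, 30.1%, 35.4% and 34.3% of all probe sets. Probe sets of 1 gene carry the same symbol and are not separate genes, and the probe sets called stood for 2 or 3 genes in each comparison. The IL-4 response of no member differed between genotypes at the threshold, with differences of -0.14 to 0.49 in log2 with RSG and of -0.48 to 0.37 with vehicle, all at an adjusted p of 1.0. These tests of the difference called 0.00461% and 0% of all probe sets. For Ncf4 the 95% interval of the difference was -0.31 to 0.52 with RSG and -0.43 to 0.41 with vehicle.

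Lists of marker genes of other cell types were set beside these values. Of all genes at 1 probe set each, 7.71% to 9.75% rose and 6.78% to 8.24% fell in the 4 IL-4 comparisons. Of 14 neutrophil markers, 9 fell in Pparg fl/- and 8 in Pparg+/- cells with either ligand, and none rose. Their summed ratio was 6.03 to 6.93 with IL-4 and RSG and 5.16 to 6.67 with IL-4 and vehicle in Pparg fl/- cells, against 23.2 to 30.7 and 19.8 to 30.8 without IL-4. In Pparg+/- cells it was 4.41 to 7.3 and 5.35 to 6.76 with IL-4, against 26.7 to 34.3 and 28.2 to 40.1 without it. Such sums put genes of separate scales together and follow those with the widest change. They do not measure the share of a cell type. Of 6 stromal markers, 3 fell in each comparison, with a summed ratio of 2.37 to 6.34 in vehicle-treated Pparg+/- cells with IL-4 and of 9.89 to 11.1 without it. Of 7 dendritic cell markers, 2 or 3 rose in each comparison, among them Itgax and Zbtb46 (log2 changes of 2.67 and 2.03 in vehicle-treated Pparg+/- cells). Because each probe set was divided by its own median, these ratios do not show whether a marker was detected. In vehicle-treated Pparg+/- cells the macrophage markers Cd14, Cx3cr1, Fcgr1 and Mertk had log2 changes of -1.11, -3.28, -2.02 and -0.87. The 1 monocyte marker measured (Ccr2), 1 of 5 eosinophil and 1 of 5 B cell markers fell there, and none of 6 T and NK cell markers was called. Neutrophils also carry the phagocyte oxidase, and the part of any of these cells in the values of the oxidase genes was not tested. In bulk RNA, fewer cells of a type and less RNA per cell cannot be told apart.

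The next question was whether the PPARγ ligand changed these genes. No oxidase probe set was called for RSG. In Pparg fl/- cells 0.00923% of all probe sets were called with IL-4 and 0% without it, and in Pparg+/- cells 0.173% with IL-4 and 0.0115% without it. Unadjusted, 4 had a p under 0.05 with IL-4 in Pparg+/- cells, and none in the other 3 comparisons. In IL-4-treated Pparg+/- cells 1436779_at of Cybb had ratios of 0.578, 0.378 and 0.467 with RSG and of 0.985, 0.681 and 0.723 with vehicle. The groups did not overlap, and the log2 change was -0.75 ± 0.21 (1.68-fold lower, adjusted p = 0.21). With the mouse as a fixed block the adjusted p was 0.042 and the fall was called, and with the mouse as a random block it was 0.16. On 1436778_at the ratios were 0.632, 0.462 and 0.533 with RSG and 1.04, 0.734 and 0.734 with vehicle, also apart, with a log2 change of -0.61 ± 0.19 (adjusted p = 0.34). Probe set 1422978_at changed by -0.38 ± 0.32, with a 95% interval of -1.05 to 0.28.

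Ncf4 and 1 of the 3 Ncf1 probe sets lay lower with RSG in the same cells, with no overlap of the arrays. The ratios of Ncf1 on 1456772_at were 0.875, 0.774 and 0.825 with RSG and 1.20, 1.06 and 1.07 with vehicle, a log2 change of -0.43 ± 0.12 (adjusted p = 0.22). On the other Ncf1 probe sets, 1425609_at and 1451767_at, the arrays overlapped, with log2 changes of -0.22 ± 0.26 and -0.25 ± 0.16, and mouse 2 was higher with RSG on both (0.32 and 0.04 in log2). The ratios of Ncf4 were 1.22, 1.06 and 1.10 with RSG, against 1.34, 1.48 and 1.39 with vehicle (-0.32 ± 0.14, adjusted p = 0.63). In all, 4 of the 10 probe sets did not overlap here, against 14.4% of all probe sets, and the median log2 change of the 10 was -0.29, against -0.01 over all. In IL-4-treated Pparg fl/- cells no probe set was apart (7.38% of all were), and the log2 changes with RSG lay between -0.23 and 0.41. The difference of the RSG response between the genotypes with IL-4, a test added after the data were seen, was 0.02 to 0.53 in log2 for the 10 probe sets, with an adjusted p of 1.0 for each and with 0% of all probe sets called. For 1436779_at it was 0.53 with a 95% interval of -0.08 to 1.14. The difference between the IL-4 responses with RSG and with vehicle in Pparg+/- cells was -0.65 ± 0.29 for this probe set (adjusted p = 1.0, with 0.00231% of all called) and uses the same arrays.

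**Figure D3:**
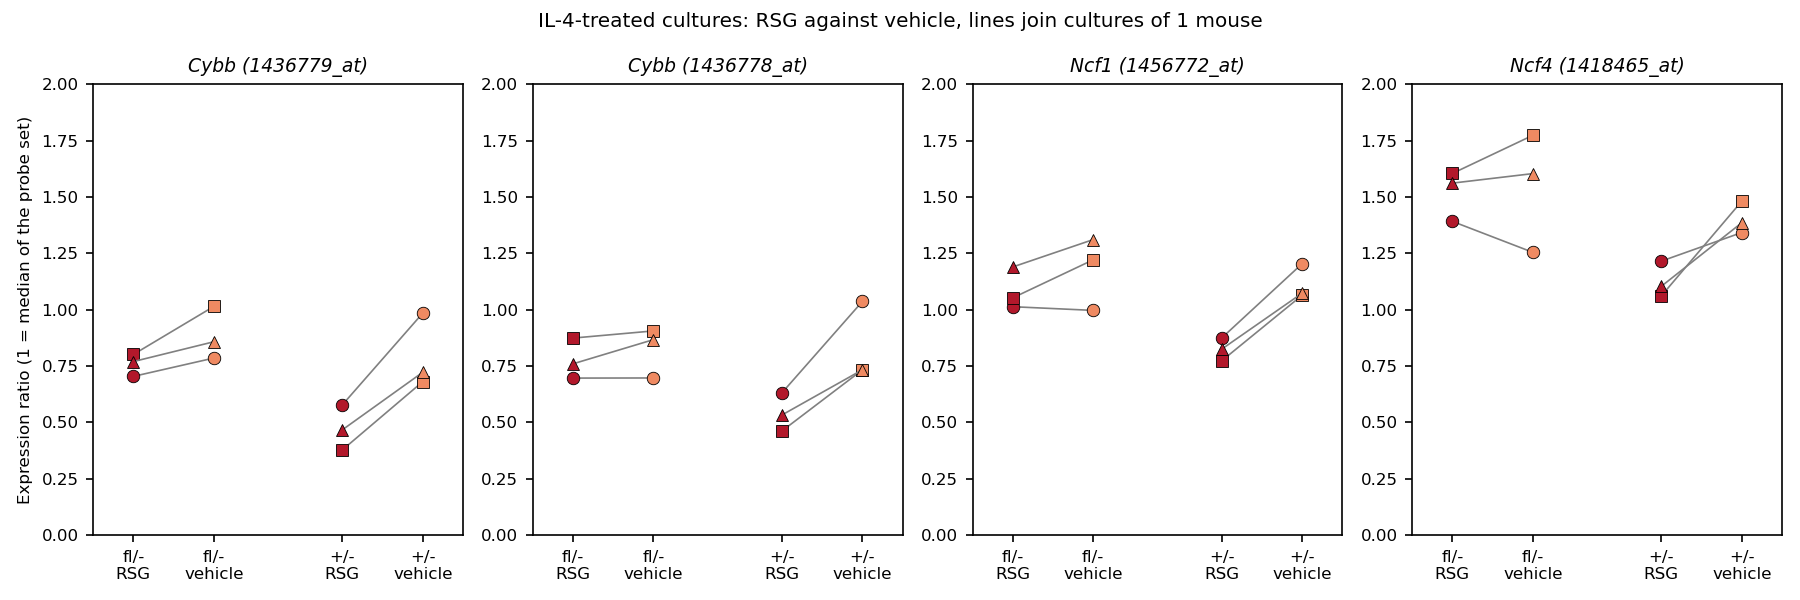
Expression ratios of 2 Cybb, 1 Ncf1 and 1 Ncf4 probe sets in IL-4-treated cultures with RSG or vehicle, Pparg fl/- on the left and Pparg+/- on the right of each panel. Lines join the 2 cultures of 1 mouse (circle, square and triangle are mice 4, 5 and 6, and mice 1, 2 and 3). The 4 shown are those of the 10 with an unadjusted p under 0.05 for RSG in Pparg+/- cells, and on each of them all 3 Pparg+/- mice are lower with RSG, with log2 changes of -0.85 to -0.63 on 1436779_at.

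Without IL-4 the RSG cultures were close to the vehicle cultures. The log2 changes of the 10 probe sets lay between -0.21 and 0.33 in Pparg fl/- and between -0.21 and 0.18 in Pparg+/- cells, and the arrays were apart for 1 probe set in each genotype, against 8.66% and 12.2% of all.

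The last question was whether Pparg fl/- cells differed from Pparg+/- cells. No oxidase probe set was called in any of the 4 culture conditions, which called 0.501% (IL-4 and RSG), 0.00231% (IL-4 and vehicle), 0.00461% (RSG alone) and 0% (vehicle alone) of all probe sets. Under IL-4 and RSG all 10 were higher in Pparg fl/- cells, by 0.23 to 0.70 in log2, with a median of 0.39 against 0.09 over all probe sets. The arrays did not overlap for 8 of the 10, against 23.1% of all. They overlapped for 1422978_at of Cybb (0.49 in log2, adjusted p = 0.59) and for 1440208_at of Rac2 (0.26, adjusted p = 0.67). On 1436779_at of Cybb the Pparg fl/- ratios were 0.704, 0.802 and 0.770 and the Pparg+/- ratios 0.578, 0.378 and 0.467 (0.70 ± 0.21, 1.62-fold higher, adjusted p = 0.16). Ncf4 had 1.39, 1.61 and 1.56 in Pparg fl/- and 1.22, 1.06 and 1.10 in Pparg+/- cells (0.43 ± 0.14, adjusted p = 0.21). For Ncf1 on 1456772_at the ratios were 1.01, 1.05 and 1.19 in Pparg fl/- and 0.875, 0.774 and 0.825 in Pparg+/- cells (0.40 ± 0.12, adjusted p = 0.18). Cyba had 1.35, 1.43 and 1.44 against 1.20 in each of the 3 Pparg+/- mice (0.23 ± 0.12, adjusted p = 0.49), and Rac2 on 1417620_at had 1.01, 1.09 and 1.12 against 0.976, 0.773 and 0.850 (0.31 ± 0.12, adjusted p = 0.30). These comparisons use the same Pparg+/- arrays as those of RSG with IL-4 above and are not separate evidence.

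Under IL-4 and vehicle the genotype differences of the 10 probe sets were -0.10 to 0.36 in log2 and no probe set was apart (10.7% of all were). Without IL-4 they were 0.06 to 0.40 with RSG, where again none was apart (16.4% of all were), and -0.14 to 0.48 with vehicle, where only 1440208_at of Rac2 was (18.6% of all were).

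**Figure D4:**
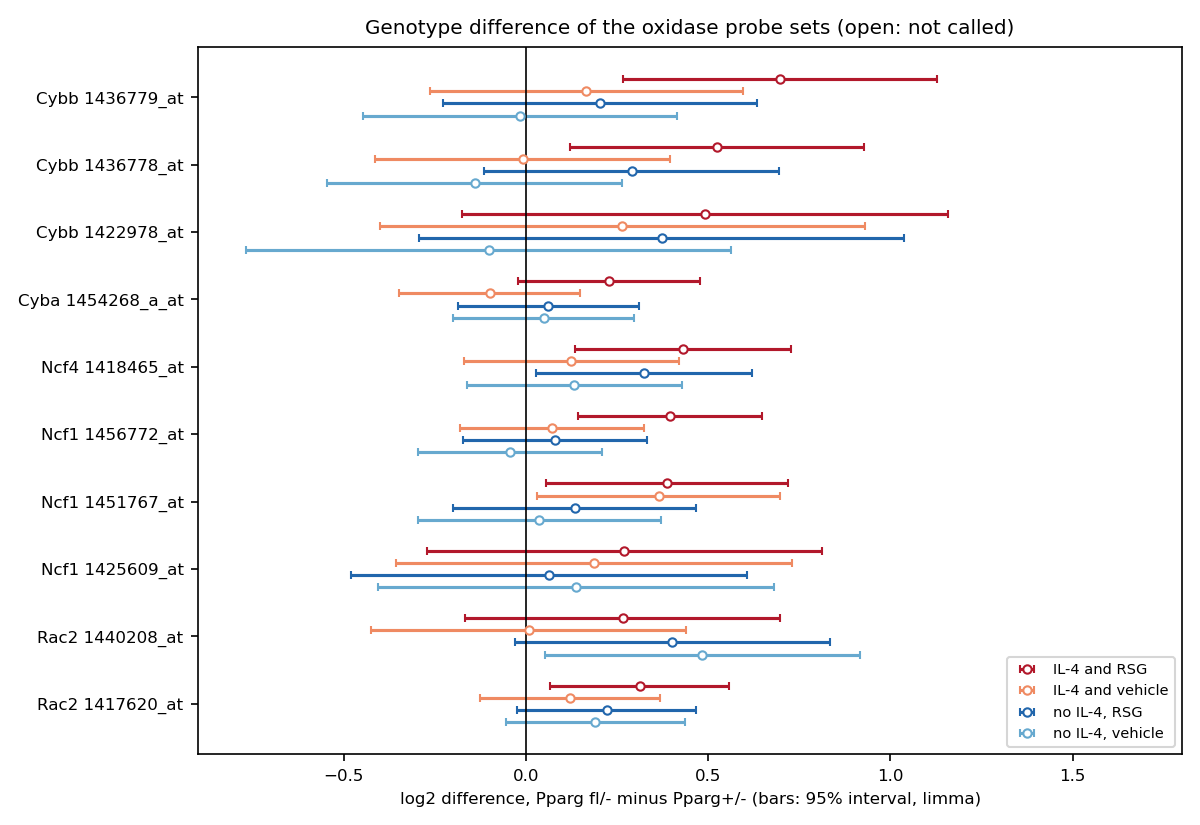
Log2 difference between genotypes (Pparg fl/- minus Pparg+/-) of each of the 10 probe sets in the 4 culture conditions, with 95% intervals from limma. All points are open because none was called. The 10 values under IL-4 and RSG lie between 0.23 and 0.70.

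Genes around the oxidase were followed as lists, with 1 probe set for each gene. Of 20 genes of oxidase assembly and activation measured, 3 rose and 2 fell with IL-4 in vehicle-treated Pparg+/- cells, against 9.34% of all genes up and 7.23% down. Itgam and Itgb2, the chains of the complement receptor integrin of phagocytes, rose by 1.11 ± 0.14 (adjusted p = 1.6e-05) and 0.80 ± 0.14 (adjusted p = 0.00033) in log2. Prkcd, a protein kinase C that phosphorylates the cytosolic subunits, rose by 0.69 ± 0.15 (adjusted p = 0.0031). S100a8 and S100a9, the calcium-binding pair that supports the oxidase of neutrophils, fell, with log2 changes of -4.44 ± 0.41 and -8.28 ± 0.33 (the size of the second depends on the lowest value of the table), and both also stand in the neutrophil list. The median of the list was 0.03, against 0.10 for all genes. In the other comparisons more genes of the list fell than rose. It had 3 up and 4 down in Pparg fl/- cells with RSG (8.72% of all genes up and 7.65% down), 3 up and 4 down in Pparg fl/- cells with vehicle (9.75% and 8.24%) and 2 up and 5 down in Pparg+/- cells with RSG (7.71% and 6.78%), with medians of -0.10, -0.05 and -0.07. Pik3cg, the catalytic subunit of a phosphoinositide 3-kinase of leukocytes, fell in all 3, with log2 changes of -0.80, -0.87 and -0.80. Of 5 other NOX and DUOX genes, none was called in any IL-4 comparison.

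Of 13 genes that remove superoxide and peroxide, 1 rose and 3 fell with IL-4 in vehicle-treated Pparg+/- cells. Of all genes, 9.34% rose and 7.23% fell there. Gpx1, a cytosolic glutathione peroxidase, rose by 0.73 ± 0.11 in log2 (adjusted p = 6e-05). Cat (catalase), Gpx3 (the secreted glutathione peroxidase) and Prdx4 (a peroxiredoxin of the endoplasmic reticulum) fell by 0.63 ± 0.10, 3.69 ± 0.72 and 0.60 ± 0.13 in log2, with adjusted p of 0.00024, 0.0011 and 0.0028. The superoxide dismutase genes Sod1, Sod2 and Sod3 were not called there. Of 13 genes for transcription factors that bind promoters of oxidase genes, only Cebpb was called in vehicle-treated Pparg+/- cells, at 0.85 ± 0.11 in log2 (adjusted p = 2.5e-05), and Spi1, Irf8 and Stat6 were not. None of 6 genes of NADPH supply was called there. The median changes of these 3 lists were 0.07, 0.36 and 0.05, against 0.10 for all genes. In the other comparisons (Pparg fl/- cells with RSG, the same with vehicle, and Pparg+/- cells with RSG) the removal list had 1, 0 and 0 genes up and 3, 3 and 1 down. Of all genes, 8.72%, 9.75% and 7.71% rose and 7.65%, 8.24% and 6.78% fell in the same order. In each of these 3 comparisons 2 transcription factor genes rose, Cebpb and Irf2, an interferon regulatory factor gene (log2 changes of 0.64, 1.03 and 0.67). Irf2 also passed the test in vehicle-treated Pparg+/- cells, at 0.58 (adjusted p = 0.040), just short of 1.5-fold. Of the NADPH genes Me1, the cytosolic malic enzyme, fell in each of the 3, with log2 changes of -1.30, -0.91 and -1.08, and it had -0.71 in vehicle-treated Pparg+/- cells.

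With RSG in IL-4-treated Pparg+/- cells, where 0.276% of all genes were called, 1 gene of the assembly list and 1 transcription factor were called. Prkcb, a protein kinase C that phosphorylates p47phox, had mean ratios of 0.509 ± 0.066 with RSG and 1.10 ± 0.136 with vehicle, a fall of 1.11 ± 0.16 in log2 (adjusted p = 0.0058). Meis1, a homeobox partner of the Hox proteins, had 1.51 ± 0.29 with RSG and 0.685 ± 0.17 with vehicle (1.16 ± 0.23, adjusted p = 0.040). Of the marker genes, Cd14 of macrophages (-1.22 ± 0.19) and Mmp8 of neutrophils (-1.08 ± 0.19) were called, while the summed neutrophil ratio was 4.41 to 7.3 with RSG and 5.35 to 6.76 with vehicle. Between the genotypes under IL-4 and RSG, where 0.739% of all genes were called, Prkcb was again the only called gene of the assembly list, with 1.10 ± 0.143 in Pparg fl/- and 0.509 ± 0.066 in Pparg+/- cells (1.11 ± 0.16, adjusted p = 0.0068). The markers Cd14 and Mmp8 were called there too, higher in Pparg fl/- cells by 1.13 (adjusted p = 0.013) and 1.18 (adjusted p = 0.010) in log2. Both values of Prkcb rest on the same 3 arrays of Pparg+/- cells with IL-4 and RSG. The 4 calls for RSG (Prkcb, Meis1, Cd14 and Mmp8) were lost by the methods' t-test (adjusted p of 0.32 to 0.47), with those groups fitted alone (0.34 to 0.52) and without any 1 of mice 1, 2 and 3 (0.11 to 0.52), and that of Meis1 also with the mouse as a fixed block (0.065) and without a variance trend (0.0501). The genotype call of Prkcb was lost by the t-test (0.19), with those groups alone (0.25) and without mouse 2, 3, 5 or 6 (0.051 to 0.080). Those of Cd14 and Mmp8 were lost by the t-test (0.20 and 0.18) and with those groups alone (0.35 and 0.24). They were also lost without mouse 1, 2, 3, 5 or 6 (0.071 to 0.14).

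Across the 24 arrays the members fell into separate patterns, which is a description, since all arrays share the IL-4 contrast and 6 mice. Cyba and Ncf4 correlated at 0.90, Cyba with the Cybb probe sets at -0.67 to -0.64, and Ncf4 with them at -0.54 to -0.52. Among 17736 other genes, those most like Cybb on 1436778_at were Ifitm2, an interferon-induced membrane protein gene (0.95), and the complement genes C1qc and C1qb (both 0.94). Most like Cyba were Cst3 (cystatin C, 0.99), Itgb2 (0.97) and the ribosomal protein gene Rpl19 (0.97). For Ncf4 they were Pstpip1, a cytoskeletal adaptor gene of blood cells, Med13l and Pdcd6 (all 0.98). For Ncf1 on 1456772_at they were Nfe2l2, which encodes a regulator of antioxidant genes (0.85), Phyh (0.84) and 4930526I15Rik (0.83). For Rac2 on 1417620_at they were 0610012G03Rik (0.90), Speg (0.89) and Scand1 (0.89).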

How the data were processed

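The deposited values are ratios that the authors made from 24 arrays with GC-RMA in GeneSpring 7.3, dividing each array by its 50th percentile and each gene by its median. The processing notes also name GCOS. A further division by vehicle controls named in the methods was not seen in the values. A genome build was not given in the sources used here. Total array brightness cannot be read from ratios, and the 3 mice of a group limit the precision.

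The 64 control probe sets were left out, and so were 1688 whose ratio did not reach the array median on at least 3 arrays. Since each ratio is relative to the probe set's own median, this filter does not select by expression level. Transcripts that were not detected may remain among the probe sets tested. Log2 ratios of 43349 probe sets were fitted in limma 3.58.1 (R 4.3.3). The model had 1 mean for each of 8 groups and a variance trend, with Benjamini-Hochberg adjustment. Symbols came from the platform annotation: 34945 probe sets had 1 symbol, 932 several and 9160 none. The code was tested on simulated data. Groups came from the labels. Replicates were mice. The labels tie the 4 cultures of a mouse together, but their deviations from the group means correlated little (median r per mouse 0.0038 to 0.031, against -0.0066 between mice of 1 genotype).

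The genes named are the members, 4 check genes, called genes of the lists and the 3 genes most like each member. In the lists, the probe set with the smallest residual SD stood for each gene. Of the promoter motifs planned, 1 was not searched. The members and lists were chosen with earlier results of these data known. Alternatives changed the scaling, filter, floor, variance trend, test, arrays fitted, mouse block and replicates.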

Additional observations from a re-analysis of the deposited data

How the results depend on the processing

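The count of oxidase probe sets called stayed within 1.5 times of its value under each alternative, apart from the following. For IL-4 with RSG in Pparg fl/- cells it was 5, but 0 by the methods' t-test, 3 with the compared groups fitted alone and 2 to 3 without 1 mouse. For IL-4 with vehicle in Pparg fl/- cells it was 2, but 1 by the methods' t-test and 1 to 2 without 1 mouse. For RSG with IL-4 in Pparg+/- cells it was 0, but 1 with the replicate block (mouse as a fixed block). Beside this and Cybb 1422978_at with IL-4 and vehicle in Pparg+/- cells (adjusted p = 0.014), the block changed no other call of a member. Cybb 1436779_at in that comparison had an adjusted p of 0.20 by the methods' t-test, and the Ncf4 calls in Pparg fl/- cells 0.075 with RSG and 0.058 with vehicle. The cause was not tested.

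The values that changed sign were all uncalled. With centred array medians and with quantile normalization, the log2 changes with IL-4 were -0.0842 and -0.0854 (Ncf1 1425609_at), -0.0539 and -0.0646 (1451767_at) and -0.00895 and -0.0215 (1456772_at) over the mean of 4. With RSG in Pparg fl/- cells 1456772_at had -0.00447 and -0.0146. In Pparg+/- cells Rac2 1440208_at had -0.0225 and -0.0288 with RSG and 1417620_at -0.0968 and -0.0933 with vehicle, where Ncf1 1451767_at had -0.00917 with centred medians. Without 1 mouse or array, Rac2 1417620_at ranged over -0.095 to 0.0477 with RSG and -0.15 to 0.0661 with vehicle in Pparg fl/- cells and -0.0149 to 0.0319 with vehicle in Pparg+/- cells. Rac2 1440208_at ranged over -0.39 to 0.12 with RSG in Pparg fl/- and -0.0181 to 0.22 in Pparg+/- cells, and Ncf1 1425609_at over -0.11 to 0.38 with vehicle in Pparg fl/- cells and -0.0599 to 0.0581 over the mean of 4. For RSG with IL-4 the ranges were -0.25 to 0.0844 (Ncf1 1425609_at), -0.15 to 0.0556 (Ncf4) and -0.0878 to 0.0685 (Rac2 1417620_at) in Pparg fl/- cells and -0.0552 to 0.41 (Rac2 1440208_at) in Pparg+/- cells. The genotype differences under IL-4 and RSG kept their sign in all 140 values. These come from 14 alternative fits of the same 10 probe sets, which share most of their arrays. In the 10 other comparisons 96 of 1410 values, none called, changed sign.

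Over all probe sets, IL-4 called 5778 (54.8% higher, 45.6% with centred medians) with RSG and 6422 with vehicle in Pparg fl/- cells, and 5044 (56.5%, 44.2% centred) with RSG and 5798 (59.1%, 47.8% centred) with vehicle in Pparg+/- cells. The methods' t-test called 2582, 1885, 3668 and 3415 in the same order, and without 1 mouse or array the counts were 4197 to 5038, 4707 to 7069, 3089 to 3701 and 3802 to 5179, the lowest of the last 2 without mouse 3. RSG with IL-4 called 75 in Pparg+/- cells, but 0 by the methods' t-test, 3 with those groups alone, and 0 to 3 without 1 mouse. The genotypes under IL-4 and RSG differed at 217 (71.0% higher, 53.3% centred), but at 0 by the t-test, 0 with those groups alone and 6 to 463 without 1 mouse.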
